A study of Mus musculus with 15 samples.

Results

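RNA sequencing of RAW264.7 cells left untreated was compared with that of RAW264.7 cells given 1 µg of the peptide LCCL for 24 h, with 3 libraries in each group. These 6 libraries were chosen by their labels from 15 in the series, and every gene that passed a filter on low counts was followed, which left 12401 of the 25639 symbols in the count table. RAW264.7 is an established mouse line with macrophage character, made from a BALB/c tumour raised with Abelson leukaemia virus. All groups carry the label wild type (WT), cell type murine macrophage and batch 1. The series title presents the peptide, which has an LCCL core motif, as a candidate drug that differentiates M1 macrophages. The other groups, also of 3 libraries, received 1 µg for 6 h, 10 µg for 6 h or 10 µg for 24 h, and of these the 1 µg 6 h and the 10 µg 24 h groups serve below as direct comparisons. The labels name neither a volume for the dose nor a vehicle group, nor when untreated cells were harvested, so time in culture and the peptide cannot be told apart in the comparison with untreated cells. They do not say whether replicates were separate cultures, and p-values measure the spread between libraries, which may be technical.

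Macrophages change their transcripts in recognisable sets. Classical (M1) activation raises inflammatory cytokines, chemokines and co-stimulatory molecules through NF-kB and interferon signalling, and alternative (M2) activation raises receptors such as the mannose receptor. Shortage of amino acids and other stresses act through the transcription factor ATF4, which raises amino acid transport and synthesis, while oxysterols act through LXR receptors, which raise cholesterol export. Growth factors of the TGF-beta and BMP family act through SMAD proteins and raise Id genes and their own feedback inhibitors. Proliferating cells keep up transcripts for DNA replication, mitosis and ribosome assembly.

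Library totals ran from 19085148 to 22434642 counts over the 15 libraries. Below, values of 3 libraries are in the order of replicates 1, 2 and 3 and are levels in CPM (counts relative to the scaled size of the library), which allow a gene to be followed between libraries but not set against another gene. Means stand with their SD, and changes are log2 fold changes with their SE from edgeR's quasi-likelihood test over the 12401 genes. The words rose and fell are kept for genes with a Benjamini-Hochberg adjusted p under 0.05. The macrophage label was checked against 11 marker genes, whose summed level was 16800 to 17200 CPM in untreated libraries and 16300 to 18000 CPM after LCCL. Lyz2, the lysozyme gene, named after its value was seen, led them at 10117, 9789.7 and 9901 CPM untreated and 11049, 9214 and 9139 CPM after LCCL, and C1qa and C1qb had at most 2 counts in any of the 6 libraries. Mitochondrial transcripts took 5.82 to 6.17% of counts in untreated libraries and 6.27 to 6.55% after LCCL, and their part in the results was not tested.

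Replicate 1 of the LCCL group stood apart from its 2 replicates. Its limma library weight, which is low for a library that sits far from its group, was 0.325, against 1.01 and 0.719 for replicates 2 and 3 and 0.537 to 1.62 in the other 12 libraries. On the 2000 genes with the highest levels the 3 weights were 0.145, 0.693 and 0.487. The SD of log2 CPM differences to the other libraries of the group, as a mean, was 0.318 to 0.339 in the other 12 libraries. By this measure replicate 1 differed little, at 0.345 against 0.325 and 0.339 for replicates 2 and 3. A chi-square of the counts per degree of freedom was 13.5 and 15.2 for its pairs with replicates 2 and 3, 5.71 for the pair without it, and 2.55 to 7.13 for the pairs of the other groups. On the first principal component, which held 66% of the variance, replicates 1, 2 and 3 lay at 29.5, 29.1 and 38.4, and the untreated libraries lay between -29.7 and -28.8. The difference was on the third component, with 3.73% of the variance, where replicate 1 lay at -15.6 and replicates 2 and 3 at 0.406 and 5.87. The 10 µg 6 h libraries lay at -12.7, -14.1 and -9.82 on the same component. Of 10208 genes with at least 5 CPM in the LCCL group, replicate 1 was off the mean of the other 2 by at least 0.5 log2 units in 225, 149 of them above. The same count was 54 for replicate 2 and 121 for replicate 3. Of the 7658 genes called below, the replicate nearest to untreated was replicate 1 in 39.8%, replicate 2 in 41.3% and replicate 3 in 18.9%. Replicate 1 did not lie beyond the untreated mean, on the side of the call, in 33 of those genes, replicate 2 in 5 and replicate 3 in 6.

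**Figure D1:**
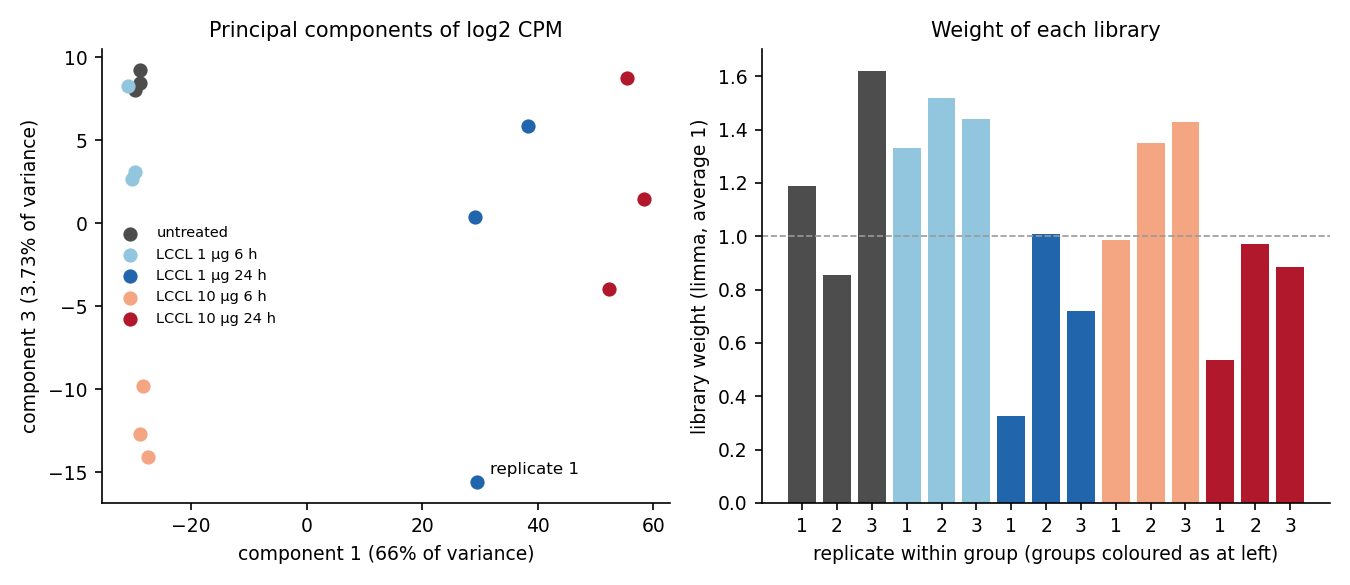
Left, each of the 15 libraries by its position on principal components 1 and 3 of log2 CPM, coloured by group. Right, the limma weight of each library (the dashed line marks 1). Replicate 1 of the 1 µg 24 h group sits at -15.6 on component 3 and has the lowest weight of the 15, 0.325.

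The genes named here were, by rule, those with replicate 1 farthest above and farthest below its replicates, so they lie on both sides. Slc5a3, the myo-inositol transporter, stood at 49.6, 59.8 and 55.9 CPM in untreated libraries and at 112, 40.1 and 34.3 CPM after LCCL. Its fitted change was 0.18 ± 0.37 (adjusted p = 0.702), and without replicate 1 it was -0.56 (adjusted p = 0.01), so the direction rested on that library. The neutrophil chemokine gene Cxcl2 stood at 31.2, 10.8 and 9.95 CPM after LCCL against 6.15, 5.06 and 4.87 CPM untreated, a rise of 1.69 ± 0.41 that was 0.95 without replicate 1 (adjusted p = 0.00417 and 4.44e-07), and the call was lost when only the 2 groups were fitted (adjusted p = 0.0674). Replicate 1 was the highest of the 3 in both genes. Below its replicates it had the metallothionein gene Mt2, at 18.2, 39.1 and 42.3 CPM against 22.4, 18.9 and 17.7 CPM untreated, and the proline synthesis gene Pycr1, at 11.5, 20.1 and 19.9 CPM against 3.66, 4.52 and 4.67 CPM. Mt2 changed by 0.75 ± 0.25 with replicate 1 and 1.04 without it, Pycr1 by 2.0 ± 0.17 and 2.22. The call of Mt2 was lost in 5 of 18 alternatives, with an adjusted p of up to 0.148: with the 2 groups fitted alone and without replicate 2 or 3 of either group. Syt2, Olfr933, Olfr934, Slc40a1, Gm20390 and Ier3 were the others with replicate 1 highest above its replicates, and Aldh1l2, Gm15433, Rdm1, Magi2, Itgb7 and Pla2g5 the others with it lowest.

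After 24 h with 1 µg LCCL most genes differed from untreated cells by small amounts, and a smaller set moved several fold. Of the gene lists, 25 of 27 amino acid response genes and 15 of 21 co-stimulatory and checkpoint ligands rose, as did the cholesterol exporter genes Abca1 and Abcg1. Id1, Id2 and Id3 fell, as did 43 of 58 interferon-stimulated genes, all 62 genes of DNA replication, 63 of 66 of mitosis, 42 of 48 of ribosome assembly and 29 of 31 proteasome subunits. Of the 12401 genes, 7658 (61.8%) were called, 3817 higher (30.8%) and 3841 lower (31%). Among called genes the median size was 0.421 log2 units and 4609 were under 0.5, while 718 rose and 188 fell by at least 2-fold. All 3 libraries of one group lay above all 3 of the other in 8023 genes (64.7%). Without replicate 1 the fit called 7391 genes, 3649 higher and 3742 lower. The even split between rises and falls depends on scaling: with library totals in place of TMM factors 4923 were higher and 2864 lower, and the median of all genes moved from 0.01 to 0.112. A share of called members near 61.8% in a gene list is therefore what the table gives in general, and the counts below are to be read by their direction.

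**Figure D2:**
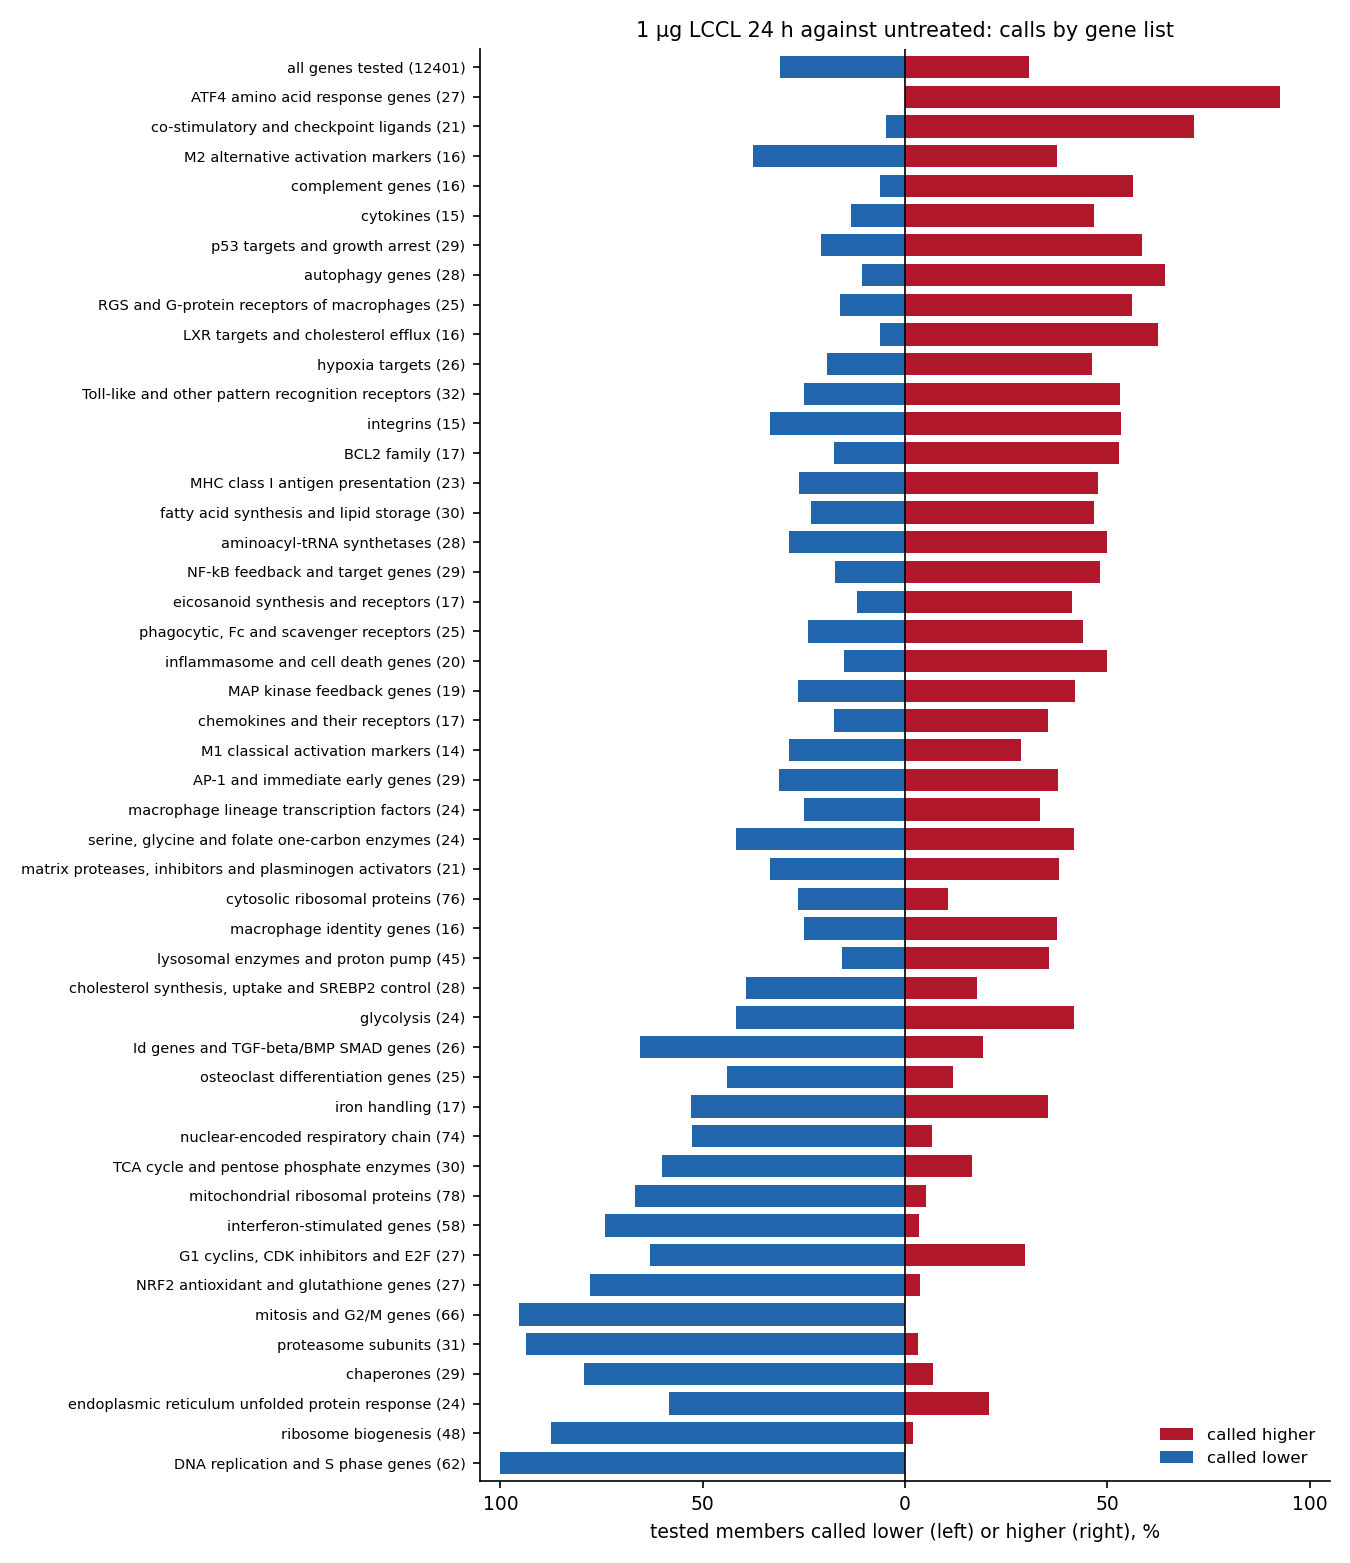
For each gene list with at least 14 tested members (number in brackets), the percentage of members called lower in blue to the left and higher in red to the right, 1 µg LCCL 24 h against untreated, ordered by the list's median log2 fold change, with all genes tested at the top. All 62 DNA replication genes were called lower and 25 of 27 ATF4 genes higher, against 31% and 30.8% of all genes.

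Among genes with at least 5 CPM in the higher group and no overlap between groups, the largest rises were those of Zrsr1, Trib3, Soat2, Gdf15, Glrp1, Aldh1l2, Cth, Ighm, Abca1, Slc1a4, Angptl6 and Pi16. Zrsr1, a splicing factor gene, stood at 0.0976, 0.593 and 0.497 CPM in untreated libraries and 9.76, 8.85 and 8.52 CPM after LCCL, a change of 4.48 ± 0.68 (adjusted p = 1.53e-04). The rule required every LCCL library to lie above every untreated one. Replicate 1, at 9.76 CPM, lay near the other 2. Soat2, which esterifies cholesterol, rose from 4.44, 4.29 and 4.87 CPM to 54.4, 66.7 and 74.1 CPM, by 3.84 ± 0.10 (adjusted p = 2.23e-19). Angptl6 rose by 3.24 ± 0.29, Pi16 by 3.14 ± 0.18 and Glrp1 by 3.42 ± 0.15. By the smallest p-values, the genes Dennd2d (1.79 ± 0.05), Glp2r (1.54 ± 0.05), Klhl24 (1.79 ± 0.06) and Ankdd1a (1.96 ± 0.07) also led. Glp2r, a peptide hormone receptor gene, went from 191, 178 and 197 CPM to 543, 543 and 560.2 CPM, with all 3 LCCL libraries close together. The largest falls besides those of the groups below were Olfml3 (-2.47 ± 0.17) and Gadd45g (-3.19 ± 0.18), a stress-induced growth arrest gene. Niban2, Itgav, Tuba4a and Map2k3, with changes of -1.32, -1.29, -1.60 and -1.40, were among the falls with the smallest p-values.

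**Figure D3:**
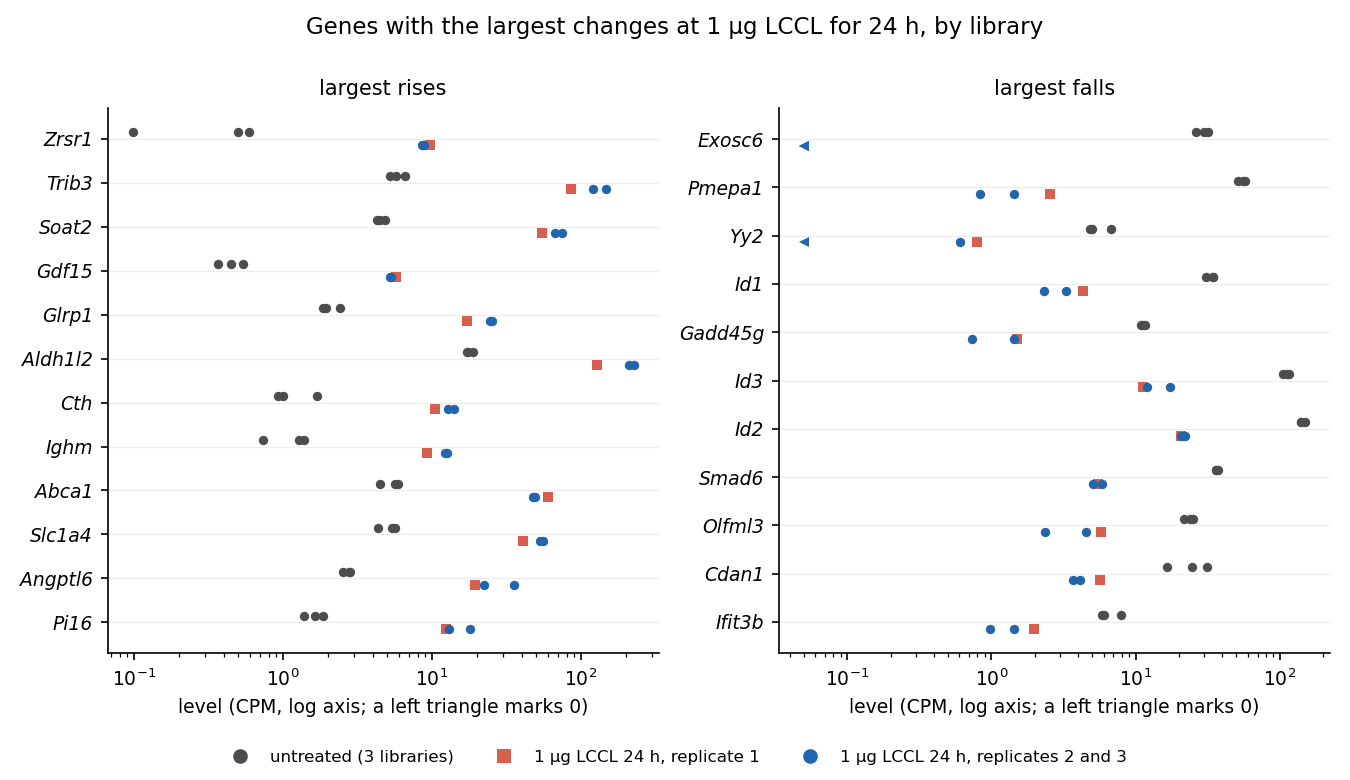
Level in CPM (log axis) of the genes with the largest rises, left, and the largest falls, right, in each untreated library (grey) and each 1 µg LCCL 24 h library (red square for replicate 1, blue for replicates 2 and 3); a left triangle marks a level of 0. The rule for choosing these genes required that the 2 groups do not overlap, so replicate 1 lies on the LCCL side in each.

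Genes that answer amino acid shortage rose together. Of 27 tested members of the ATF4 list, 25 were higher and 0 lower, with a median log2 fold change of 1.6 beside 0.01 over all genes, and 18 rose by at least 2-fold. Trib3, a pseudokinase that feeds back on ATF4, stood at 5.76, 6.57 and 5.22 CPM in untreated libraries and 86.3, 121 and 148 CPM after LCCL. That is a rise of 4.33 ± 0.24 (adjusted p = 2.92e-08), with replicate 1 the lowest of the 3 and still far above the highest untreated library. Chac1, which degrades glutathione, rose from 4.59, 5.47 and 4.97 CPM to 32.3, 37.5 and 32.4 CPM, by 2.76 ± 0.10. Sesn2, a sensor that restrains mTORC1, went from 11.1, 11.4 and 12.4 CPM to 61.1, 61.2 and 62.5 CPM, by 2.41 ± 0.07, with the 3 LCCL libraries nearly equal. Gdf15, a secreted stress factor, stood at 0.537, 0.365 and 0.447 CPM untreated and 5.70, 5.23 and 5.32 CPM after LCCL and rose by 3.58 ± 0.20. Cth, the enzyme that makes cysteine from cystathionine, stood at 0.927, 1.69 and 0.994 CPM and 10.5, 12.8 and 14.1 CPM and rose by 3.36 ± 0.21. In both genes every LCCL library lay above every untreated one, which the rule for choosing the largest rises required. Among further members the amino acid genes rose as well, the glycine transporter gene Slc6a9 by 2.51 ± 0.09 and the transaminase Gpt2 by 1.82 ± 0.08. Ddit4, an mTORC1 inhibitor, rose by 2.68 ± 0.20. Slc1a4, a transporter of alanine, serine and cysteine outside the list, rose from 5.61, 5.38 and 4.32 CPM to 40.6, 55.6 and 53.3 CPM. Atf4 itself, the related factor Atf5 and the asparagine synthetase gene Asns, all 3 named after their values were seen, rose by 1.07 ± 0.06, 1.91 ± 0.08 and 1.60 ± 0.09. The 2 members that did not pass, also named after their values were seen, were Cebpb at -0.01 ± 0.22 and the cystine transporter Slc7a11 at 0.22 ± 0.23. Without replicate 1 the list had 25 higher and 1 lower, with a median of 1.74.

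The sequence letters bound by ATF4 with a C/EBP partner were looked for in promoters, because these genes moved together. RefSeq promoters (build GRCm38.p6, 250 bases before to 50 after a start) matched 9623 of the tested genes by symbol, and the 7669 with a single start were searched on both strands for 12 motifs in 8 gene lists, among them TGATGNAA. This motif was in 7 of 18 promoters of the ATF4 list (38.9%) and in 178 of 7669 overall (2.32%). Among genes that rose by at least 2-fold it was in 28 of 418 promoters (6.7%), among all that rose in 77 of 2236 (3.44%) and among all that fell in 37 of 2533 (1.46%). Of the other motifs, the NRF2 element TGACNNNGC was in 6 of the 18 promoters of the ATF4 list (33.3%), against 1132 of 7669 overall (14.8%). Values are given here for some of the motifs and lists searched. These shares are a description with no test, and a match is not a binding site. The ATF4 list is known for TGATGNAA. The 200 bases before the start of 4 genes with a match are shown, with the match in capitals on either strand. They are Chac1 and the proline enzyme gene Pycr1, and Pck2 and Nupr1, which were chosen for their match after their values were seen.
Chac1 (chr2:119351042-119351241, + strand): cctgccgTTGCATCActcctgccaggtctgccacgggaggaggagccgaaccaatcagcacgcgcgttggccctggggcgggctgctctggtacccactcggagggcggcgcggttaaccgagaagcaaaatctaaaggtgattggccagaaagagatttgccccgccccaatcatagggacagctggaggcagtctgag
Pck2 (chr14:55540066-55540265, + strand): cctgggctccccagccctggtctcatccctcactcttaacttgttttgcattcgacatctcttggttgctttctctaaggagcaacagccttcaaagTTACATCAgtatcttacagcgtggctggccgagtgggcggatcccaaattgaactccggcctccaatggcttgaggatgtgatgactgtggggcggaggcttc
Pycr1 (chr11:120643749-120643948, - strand): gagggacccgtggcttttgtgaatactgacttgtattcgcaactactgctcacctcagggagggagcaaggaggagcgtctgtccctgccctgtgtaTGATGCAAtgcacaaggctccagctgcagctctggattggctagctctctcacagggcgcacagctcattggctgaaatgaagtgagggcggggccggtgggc
Nupr1 (chr7:126625471-126625670, - strand): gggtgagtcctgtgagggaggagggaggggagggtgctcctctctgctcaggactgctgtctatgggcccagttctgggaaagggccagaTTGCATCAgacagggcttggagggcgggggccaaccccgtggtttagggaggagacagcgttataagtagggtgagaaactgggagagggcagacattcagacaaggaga
The match begins 193, 103, 103 and 110 bases before the start in Chac1, Pck2, Pycr1 and Nupr1. Pck2, which makes phosphoenolpyruvate in mitochondria, rose by 2.30 ± 0.09, Pycr1 by 2.0 ± 0.17 and the stress regulator Nupr1 by 2.36 ± 0.13.

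Genes of serine, glycine and folate metabolism were divided: of 24 tested, 10 rose and 10 fell. Aldh1l2, the mitochondrial formyltetrahydrofolate dehydrogenase, stood at 17.2, 17.5 and 18.9 CPM untreated and 129, 209.8 and 225 CPM after LCCL, a rise of 3.39 ± 0.20 that was 3.61 without replicate 1, the lowest of the 3. Mthfd2, also mitochondrial, rose by 1.17 ± 0.05, and Phgdh and Psph of serine synthesis, named after their values were seen, by 1.25 ± 0.07 and 1.12 ± 0.08. The falls were in Gcsh of the glycine cleavage system (-1.06 ± 0.05), Mat2a, which makes S-adenosylmethionine (-0.83 ± 0.05), and the thymidylate synthase gene Tyms (-0.82 ± 0.08), named after its value was seen. Of 28 aminoacyl-tRNA synthetases, which charge tRNAs, 14 rose and 8 fell, with a median of 0.159. Cars rose by 1.05 ± 0.06, Aars by 0.87 ± 0.07, Lars by 0.75 ± 0.05 and Iars by 0.66 ± 0.05. Aars and Exosc6 share exons, as described with the genes at 0 below.

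The cholesterol exporter genes Abca1 and Abcg1 were among the larger rises. Abca1, which loads cholesterol onto apolipoproteins, stood at 4.44, 5.61 and 5.91 CPM in untreated libraries and 59.7, 48.8 and 47.3 CPM after LCCL, a rise of 3.29 ± 0.10 (adjusted p = 1.91e-18). Abcg1, its partner exporter, went from 42.5, 45.1 and 52.8 CPM to 214, 207 and 215 CPM, by 2.18 ± 0.06 (adjusted p = 2.23e-19), and its 3 LCCL libraries lay within a few percent of each other. Of 16 tested LXR targets and efflux genes, 10 rose and 1 fell, with a median of 0.305. Scd1, the desaturase that makes monounsaturated fatty acids, rose from 148, 153 and 164 CPM to 459, 480.0 and 387 CPM, by 1.51 ± 0.07. Pltp, a lipid transfer protein, rose by 1.08 ± 0.08, and Mylip, which degrades the LDL receptor, by 0.78 ± 0.07. Apoe, an apolipoprotein gene and the member that fell, named after its value was seen, changed by -0.43 ± 0.13. Of 28 genes of cholesterol synthesis and uptake, 5 rose and 11 fell (4 and 14 without replicate 1, 7 and 9 with library totals as the scale), with a median of -0.08 that turned to 0.0213 with library totals. Hsd17b7 (-1.03 ± 0.06) and Idi1 (-0.72 ± 0.06) were among the falls. In fatty acid metabolism, where 14 of 30 rose and 7 fell, Lpin1, a phosphatidate phosphatase, rose by 1.5 ± 0.10 and the acetyl-CoA synthetase Acss2 by 0.95 ± 0.06. Cd36, a scavenger receptor and fatty acid importer, fell from 168, 143 and 142 CPM to 66.3, 58.3 and 53.4 CPM, by 1.35 ± 0.07.

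Several Id genes and feedback genes of SMAD signalling were among the largest falls. Pmepa1, a TGF-beta-induced inhibitor of SMAD signalling, stood at 57.5, 51.1 and 55.3 CPM in untreated libraries and at 2.56, 1.43 and 0.837 CPM after LCCL, a change of -5.06 ± 0.16 (adjusted p = 6.26e-14). Id1, which blocks helix-loop-helix transcription factors, stood at 34.4, 30.8 and 34.2 CPM untreated and 4.28, 3.28 and 2.31 CPM after LCCL, and changed by -3.32 ± 0.13. Id2 went from 149, 139.7 and 141 CPM to 20.5, 22 and 20.5 CPM, by -2.77 ± 0.06, and had the narrowest spread of the 3 Id genes among LCCL libraries. Id3 went from 116, 112 and 106 CPM to 11.3, 17.2 and 12.1 CPM, by -3.03 ± 0.12. Smad6, the inhibitory SMAD of BMP signalling, changed by -2.73 ± 0.11, from 35.9, 37.0 and 36.2 CPM to 5.52, 5.87 and 5.02 CPM. Smad7 (-1.98 ± 0.16) and Skil (-1.25 ± 0.06), named after their values were seen, fell as well. Over the 26 tested members of this list 17 fell and 5 rose, with a median of -0.17, but with library totals or upper-quartile factors as the scale 11 fell and 7 rose. Most others moved little: the receptor Tgfbr2 rose by 0.42 ± 0.05 and Smad4 by 0.29 ± 0.05, while Smad2 fell by 0.20 ± 0.06 and Acvr1 by 0.27 ± 0.06, all 4 named after their values were seen.

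Interferon-stimulated genes fell as a group by a moderate amount. Of 58 tested, 43 fell and 2 rose, with a median of -0.37 (-0.36 without replicate 1). Ifit1, an antiviral RNA-binding protein, stood at 24.1, 22.9 and 25.3 CPM in untreated libraries and 7.2, 8.42 and 6.50 CPM after LCCL, a change of -1.70 ± 0.10 (adjusted p = 6.40e-13). Ifit3 went from 15.9, 18.7 and 18.5 CPM to 7.24, 6.13 and 4.58 CPM, by -1.56 ± 0.11, Ifit3b changed by -2.16 ± 0.19, Irgm1, an immunity-related GTPase, by -1.08 ± 0.06 and Oasl1 by -0.89 ± 0.06. Ifit3 and Ifit3b are close copies, and reads may be divided between them in a way the sources do not state. Cxcl10, the interferon-induced chemokine, fell from 12.5, 12.5 and 12.8 CPM to 4.24, 2.59 and 2.86 CPM, by -1.96 ± 0.14, with replicate 1 the highest of the 3 LCCL libraries. The transcription factor gene Irf5 fell by 0.73 ± 0.05 and the DNA sensor Cgas by 0.75 ± 0.06. The interferon element GAAANNGAA, searched on both strands in the same promoters, was in 24 of 37 promoters of the list (64.9%), in 580 of 7669 overall (7.56%), in 166 of 2236 that rose (7.42%) and in 193 of 2533 that fell (7.62%). The list is known for this element. In the same 37 promoters TGATGNAA was found in 4 (10.8%), against 2.32% overall. The AP-1 element TGANTCA was in 9 of them (24.3%), against 368 of 7669 overall (4.8%), and the cell-cycle element TTTGAA in 10 (27%), against 968 (12.6%). The 200 bases before the start of Ifit1 and Ifit3 are shown for their repeated matches, in capitals.
Ifit1 (chr19:34640689-34640888, + strand): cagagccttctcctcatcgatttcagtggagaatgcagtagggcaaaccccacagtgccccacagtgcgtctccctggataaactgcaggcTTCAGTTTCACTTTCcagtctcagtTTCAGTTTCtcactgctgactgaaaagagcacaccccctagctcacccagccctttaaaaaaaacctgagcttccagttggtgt
Ifit3 (chr19:34583329-34583528, + strand): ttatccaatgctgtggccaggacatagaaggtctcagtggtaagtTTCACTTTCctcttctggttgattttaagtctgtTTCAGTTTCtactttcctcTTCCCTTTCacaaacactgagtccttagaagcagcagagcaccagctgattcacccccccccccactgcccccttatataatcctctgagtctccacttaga
Each has 3 matches, which begin 109, 103 and 84 bases before the start in Ifit1, where the first 2 overlap, and 155, 121 and 102 bases before it in Ifit3.

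Genes of DNA replication fell without exception. All 62 tested members were lower, with a median of -0.71 (-0.76 without replicate 1), where 31% of all genes were lower. Mcm3, a subunit of the replicative helicase, stood at 302, 298 and 298 CPM untreated and 146, 151 and 126 CPM after LCCL, a change of -1.09 ± 0.06 (adjusted p = 7.21e-14). Fen1, which trims Okazaki fragments, changed by -1.16 ± 0.06, Rpa1, which coats single-stranded DNA, by -0.91 ± 0.05 and the uracil glycosylase Ung by -1.55 ± 0.09. Of 66 mitosis genes, 63 fell and 0 rose, with a median of -0.44, and the mitotic kinase genes Cdk1, Aurka and Aurkb changed by -0.90, -0.79 and -0.65. Cdk1 stood at 142, 144 and 148 CPM untreated and 85.1, 80.3 and 66.5 CPM after LCCL. Among 27 regulators of the G1 phase 17 fell and 8 rose. Ccnd1, cyclin D1, fell from 1001, 1017 and 1003 CPM to 584, 666 and 571 CPM, by 0.73 ± 0.06, and E2f8 by 0.87 ± 0.06. Mxd4, an antagonist of Myc, rose by 1.70 ± 0.09. Ccnd2, cyclin D2, rose by 1.73 ± 0.40 and Myc fell by 1.03 ± 0.30, both named after their values were seen. On both strands of the same promoters, the cell-cycle element TTTGAA was in 34 of 50 promoters of mitosis genes (68%), against 968 of 7669 overall (12.6%), and the E2F element TTTCCCGC in 8 of 41 promoters of replication genes (19.5%), against 175 of 7669 (2.28%). Both shares describe lists that are known for these elements. In a bulk sample, fewer dividing cells and less of these transcripts in each cell cannot be told apart.

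Most tested genes of ribosome assembly, the proteasome and the chaperone list fell. Of 48 ribosome assembly genes 42 fell and 1 rose, with a median of -0.56. Ncl, nucleolin, stood at 1588, 1636 and 1554 CPM untreated and 835, 927 and 836 CPM after LCCL, a change of -0.88 ± 0.05, and Dkc1, which modifies ribosomal RNA, changed by -1.03 ± 0.05. Of 31 proteasome subunits 29 fell and 1 rose, with a median of -0.49. Psmd1, of the regulatory cap, changed by -0.96 ± 0.05. Of 29 chaperones 23 fell and 2 rose, among them Hspa8 (-1.09 ± 0.05), the constitutive HSP70, and Hsph1 (-1.15 ± 0.06). The unfolded protein response of the endoplasmic reticulum leaned lower: 14 of 24 fell and 5 rose, with a median of -0.52. Without replicate 1, 16 fell and 5 rose, with a median of -0.62. Calr, the chaperone calreticulin, fell from 1606, 1569.7 and 1583 CPM to 743, 704 and 542 CPM, by 1.26 ± 0.08, and Dnajb11 by 0.74 ± 0.06. The stress sensor Ern1 rose from 38.1, 44.7 and 42.5 CPM to 94.9, 107 and 124 CPM, by 1.38 ± 0.09, and Herpud1 rose by 0.91 ± 0.08. Cytosolic ribosomal protein genes had 8 higher and 20 lower of 76, and 26 higher and 11 lower with library totals as the scale (21 and 12 with upper-quartile factors). These took only 0.801 to 0.954% of counts in the 15 libraries and have many near-identical copies, so their values are uncertain.

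Of 78 mitochondrial ribosomal proteins 52 fell and 4 rose (median -0.28), or 37 and 5 with library totals as the scale. Of 74 nuclear genes of the respiratory chain 39 fell and 5 rose (median -0.20), or 27 and 5 with library totals. Mrpl12 changed by -0.85 ± 0.06 and Cycs, cytochrome c, by -0.73 ± 0.06. Among 13 tested transcripts of the mitochondrial genome 3 fell and 1 rose, with mt-Nd1 at -0.30 ± 0.05, but with library totals as the scale 1 fell and 5 rose and their median of -0.04 turned to 0.0631. NRF2 guards against oxidants, and of 27 of its targets and glutathione genes 21 fell and 1 rose. Their median was -0.43 with replicate 1 and -0.565 without it. Gclc, of glutathione synthesis, stood at 215, 208 and 198 CPM untreated and 120.2, 99.4 and 88.6 CPM after LCCL, a change of -1.01 ± 0.07, and Gsr, which recycles glutathione, changed by -1.04 ± 0.07. Of 30 genes of the TCA cycle and pentose phosphate pathway 18 fell and 5 rose (13 and 6 with library totals), with Taldo1 at -0.75 ± 0.05. Glycolysis divided, with 10 of 24 higher and 10 lower. The lactate genes Ldha (-0.76 ± 0.05) and Slc16a1 (-0.97 ± 0.05) and the hexokinase Hk1 (-0.81 ± 0.06) fell, and Aldoc rose (0.72 ± 0.05).

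The transferrin receptor gene fell and the ceruloplasmin gene rose from a low level. Tfrc, the transferrin receptor, stood at 821, 781 and 776 CPM in untreated libraries and 236, 239 and 183 CPM after LCCL, a change of -1.85 ± 0.07 (adjusted p = 3.82e-14). Cp, ceruloplasmin, a ferroxidase, had 0.146, 0.182 and 0.0497 CPM untreated and 4.02, 2.25 and 4.33 CPM after LCCL, a rise of 4.72 ± 0.47, and no library of the 2 groups overlapped. The ferritin light chain Ftl1 fell by 0.82 ± 0.07 and the mitochondrial iron importer Slc25a37 rose by 0.56 ± 0.05. In all, 6 of 17 iron genes rose and 9 fell, or 7 and 6 with library totals as the scale. Of 26 hypoxia targets 12 rose and 5 fell, or 14 and 3 with library totals as the scale. Vegfa, the angiogenic growth factor, rose from 17.4, 14.6 and 15.6 CPM to 68.5, 71.2 and 72.6 CPM, by 2.16 ± 0.07. Among the falls were Ldha, Slc2a1, Pgk1 and Eno1, which are also glycolytic, the last 3 named after their values were seen.

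Autophagy, growth arrest and death genes leaned upward. Of 28 autophagy genes 18 rose and 3 fell, with a median of 0.373, among them the receptors Calcoco1 (1.41 ± 0.08) and Nbr1 (0.64 ± 0.05) and the initiating kinase Ulk1 (0.69 ± 0.07). Of 29 p53 targets and growth arrest genes 17 rose and 6 fell, or 17 and 8 without replicate 1. The largest fall in this list was that of Gadd45g, at -3.19. The BH3-only death genes Bbc3 and Pmaip1 rose by 1.84 ± 0.11 and 1.23 ± 0.08, with Bbc3 at 19.6, 21.8 and 21.6 CPM untreated and 66.7, 79.8 and 79.0 CPM after LCCL. Bak1, a pore-forming death effector, fell by 0.63 ± 0.06. Over the BCL2 family 9 of 17 rose and 3 fell, or 9 and 5 without replicate 1. Txnip, an inhibitor of thioredoxin that rises with glucose, went from 368, 343 and 351 CPM to 779.6, 842 and 905 CPM, by 1.25 ± 0.06, and Casp4, the caspase that senses intracellular lipopolysaccharide, rose by 1.06 ± 0.09. Of 20 inflammasome and cell death genes 10 rose and 3 fell.

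The genes that define M1 and M2 activation were divided in direction. Of 14 tested M1 markers 4 rose and 4 fell, with a median of 0.03 (4, 6 and -0.298 without replicate 1), and of 16 M2 markers 6 rose and 6 fell, with a median of 0.627 (6, 5 and 0.262). Cd86, a co-stimulatory ligand among the M1 markers, was low throughout and rose from 0.634, 0.593 and 0.149 CPM to 2.74, 2.07 and 2.41 CPM, by 2.36 ± 0.34. Cd40, a receptor for T cell help, rose from 1.32, 1.96 and 1.84 CPM to 5.34, 3.41 and 4.53 CPM, by 1.37 ± 0.23. Neither gene's groups overlapped. Cd80 rose by 0.88 ± 0.09. Of the M2 markers, the mannose receptor Mrc1 rose from 1.07, 1.14 and 0.994 CPM to 3.27, 2.29 and 2.46 CPM, by 1.32 ± 0.27, and the beta-glucan receptor Clec7a by 0.99 ± 0.06. Klf4, a transcription factor of both monocytes and M2 cells, went from 15.8, 12.5 and 14.5 CPM to 62.9, 85.0 and 90.9 CPM, by 2.48 ± 0.14. Tgm2, a transglutaminase, fell from 13.8, 16.2 and 13.3 CPM to 5.61, 4.32 and 5.12 CPM, by 1.53 ± 0.16, and the scavenger receptor Msr1 by 0.44 ± 0.06. Nos2 had 4, 0 and 1 counts untreated and 6, 6 and 1 after LCCL, Arg1 gave -0.26 ± 0.35, and neither passed (adjusted p = 0.221 and 0.534).

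For Tnf and Ptgs2 the call changed with replicate 1 and with the method. Tnf stood at 101, 99.0 and 100.3 CPM untreated and 111, 73.2 and 66.3 CPM after LCCL, with replicate 1 above and replicates 2 and 3 below all untreated libraries. Its change was -0.26 ± 0.14 (adjusted p = 0.136) with replicate 1 and -0.52 (adjusted p = 4.85e-10) without it. Ptgs2, the inducible cyclooxygenase, stood at 9.71, 9.90 and 10.0 CPM and 13.2, 4.06 and 3.10 CPM, and gave -0.53 ± 0.41 with replicate 1 (adjusted p = 0.285) and -1.46 without it (adjusted p = 3.29e-09). With replicate 1 kept, limma-voom also called both genes lower, Tnf at -0.30 (adjusted p = 0.0245) and Ptgs2 at -0.82 (adjusted p = 0.019). Acod1, which makes itaconate, stood at 12.5, 12 and 10.2 CPM and 23.4, 11.7 and 8.37 CPM, and gave 0.33 ± 0.30 with replicate 1 and -0.20 without it, neither of which passed (adjusted p = 0.372 and 0.201). Il1rn, the receptor antagonist of interleukin 1, fell by 0.91 ± 0.16 with replicate 1 (adjusted p = 5.88e-04) and by 1.17 without it. Il1b had 3, 1 and 3 counts untreated and 10, 1 and 2 after LCCL, Il6 had 0, 1 and 0 against 4, 0 and 0, and Il10 had 8, 10 and 2 against 1, 0 and 1. Il12b, Retnla and Chil3 had 0 counts in all 6 libraries.

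**Figure D4:**
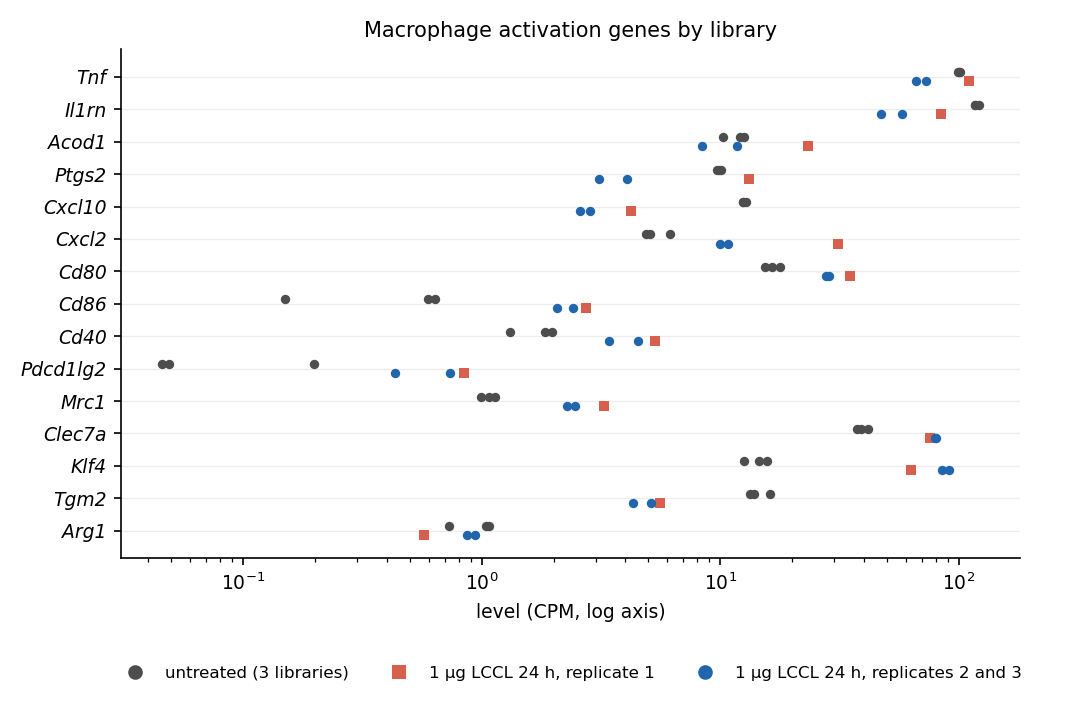
Level in CPM (log axis) of 15 genes of macrophage activation in each untreated library (grey) and each 1 µg LCCL 24 h library (red square for replicate 1, blue for replicates 2 and 3). Replicate 1 is the highest LCCL library for 12 of the 15 genes, all but Clec7a, Klf4 and Arg1. For Tnf, Acod1 and Ptgs2 it alone lies above the untreated libraries. The 15 genes were picked by hand, and Cxcl2 had been named because replicate 1 lay above its replicates. The count of 12 therefore does not speak for other genes, over which it was not made.

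Other immune genes rose more often than they fell. Of 15 tested cytokine genes 7 rose and 2 fell, among them Il16 (1.19 ± 0.09), Tnfsf9 (0.99 ± 0.06) and Il15 (0.79 ± 0.11), while Mif fell by 0.31 ± 0.05. Of 17 chemokine and receptor genes 6 rose and 3 fell, and 5 and 5 did so without replicate 1. The receptor Ccr2 rose by 1.18 ± 0.17 and Ccrl2 by 1.37 ± 0.21. NF-kB feedback and target genes had 14 of 29 higher and 5 lower, or 13 and 8 without replicate 1, with Birc3 at 0.86 ± 0.06 and Tnfaip2 at 0.83 ± 0.06. Plau, urokinase, fell from 460.2, 474 and 497 CPM to 195, 233 and 175 CPM, by 1.24 ± 0.09. Co-stimulatory and checkpoint ligands leaned higher, with 15 of 21 up, 1 down and a median of 0.941. Cd200r1, an inhibitory receptor, rose by 1.07 ± 0.08, Cd83 by 0.86 ± 0.06 and the low Pdcd1lg2, named after its value was seen, by 2.72 ± 0.58, and Havcr2 fell by 0.90 ± 0.07. Of 16 complement genes 9 rose and 1 fell. C3, the central complement protein, rose from 5.17, 5.43 and 5.27 CPM to 21.6, 15.9 and 19.4 CPM, by 1.84 ± 0.13.

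Receptors and lineage genes changed in part. Of 32 Toll-like and other pattern receptors and their adaptors 17 rose and 8 fell, with Tlr9 at 1.29 ± 0.12 and Irak2 at 0.62 ± 0.05. Of 25 phagocytic and scavenger receptors 11 rose and 6 fell. Fcgr2b, the inhibitory Fc receptor, rose from 59.8, 62.3 and 57.0 CPM to 142, 150.4 and 147 CPM, by 1.29 ± 0.05, and Itgam, the CD11b integrin, by 0.77 ± 0.05. Adgre1, the F4/80 antigen, rose by 0.62 ± 0.06. Over the 16 tested macrophage identity genes 6 rose and 4 fell, or 7 and 1 with library totals as the scale. Among the falls were Cd14 (-0.46 ± 0.06) and Cd68 (-0.215 ± 0.05), both named after their values were seen. Cd74, the class II invariant chain, rose from 74.8, 74.1 and 82.9 CPM to 158, 155 and 188 CPM, by 1.11 ± 0.07. Of 7 tested class II genes 3 rose and 0 fell, or 2 and 0 without replicate 1. Of 23 class I genes 11 rose and 6 fell. Genes of osteoclast formation, into which RAW264.7 cells can differentiate, had 11 of 25 lower and 3 higher, or 13 and 1 without replicate 1, but 8 lower and 7 higher with library totals as the scale. Nfatc1, their master regulator, fell from 252, 229 and 247 CPM to 119.9, 120.4 and 109 CPM, by 1.06 ± 0.06, and the RANK receptor Tnfrsf11a by 0.63 ± 0.07. Among integrins 8 of 15 rose and 5 fell, with Itgav (-1.29 ± 0.05) and Itga5 (-0.93 ± 0.05) lower. The syndecan Sdc1 fell by 1.75 ± 0.11 and the protease Adam8 by 0.91 ± 0.07, in a list of 21 matrix genes with 8 higher and 7 lower.

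Signalling feedback genes were divided. Of 29 immediate early genes 11 rose and 9 fell: Atf3 rose by 0.72 ± 0.05 and Zfp36l1 by 1.29 ± 0.07, and Junb and Fos fell by 0.62 ± 0.05 and 0.83 ± 0.07. Of 19 MAP kinase feedback genes 8 rose and 5 fell, with Dusp6 at 0.80 ± 0.07 and Dusp5 at -1.35 ± 0.19. Of 25 RGS and G-protein receptor genes 14 rose and 4 fell. Among 17 eicosanoid genes 7 rose and 2 fell, or 5 and 5 without replicate 1. Alox5, which starts leukotriene synthesis, rose from 31.4, 32.5 and 31.6 CPM to 74.4, 57.8 and 60.9 CPM, by 1.02 ± 0.08. Of 24 lineage transcription factors 8 rose and 6 fell, with Cebpd at 0.96 ± 0.07 and Irf8 at 0.76 ± 0.06.

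Some marker genes of other cell types rose from low levels, while other markers of the same types had 0 counts. Ighm, the immunoglobulin heavy chain of B cells, stood at 0.732, 1.28 and 1.39 CPM untreated and 9.19, 12.5 and 12.3 CPM after LCCL, a rise of 3.31 ± 0.21 (adjusted p = 9.61e-13). The summed level of 9 B cell markers was 13 to 17.2 CPM untreated and 30 to 32.6 CPM after LCCL, and Ms4a1, Cd79b and Igkc had 0 counts in all 6 libraries. Cd79a, of the B cell receptor, named after its value was seen, had 3, 6 and 5 counts untreated and 15, 19 and 16 after LCCL, a rise of 1.73 ± 0.41 (adjusted p = 8.32e-04). For 11 neutrophil markers the sum was 3.79 to 5.61 CPM and 20.8 to 27 CPM, led by Csf3r, with S100a9, Ly6g, Mpo, Ltf, Ngp and Retnlg at 0. For 12 T cell markers it was 6.29 to 7.94 CPM and 17.1 to 21.1 CPM, led by Cd28, with Cd3e and Cd3g at 0. For 8 endothelial markers it was 6.98 to 8.64 CPM and 14.9 to 20.8 CPM, led by Vwf, with Cldn5 and Emcn at 0. Of fibroblast and epithelial markers 7 of 10 and 8 of 9 were at 0 in all 6 libraries.

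A few genes went from many counts to 0 or the reverse. Exosc6, an exosome subunit, had 651, 579 and 604 counts in the untreated libraries and 0 in each LCCL library, at least 646-fold lower against a floor of 3 counts over the group. It also had 0 counts in the 3 libraries of 10 µg for 24 h and 464 to 602 counts in those of 6 h. In the GENCODE annotation of GRCm38, all 1326 exon bases of Exosc6 lie inside exons of Aars on the same strand, and Aars went from 208, 209 and 206 CPM to 323, 414 and 404 CPM. Nup43, a nuclear pore subunit gene, had 66, 86 and 65 counts untreated and 0 in each LCCL library (at least 76.5-fold lower), and was also at 0 in the 3 libraries of 10 µg for 24 h. Tapbpl, an editor of class I peptides, had 51, 28 and 62 counts untreated and 0 in each LCCL library (at least 49.7-fold lower), but 32, 0 and 29 at 10 µg for 24 h. No exon of Nup43 or Tapbpl overlaps another gene in that annotation. The counts used another build, so this does not make the 0 values of these genes certain. Of 2 further falls that did not reach 0 in every library, Yy2, with 138, 110 and 97 counts untreated and 18, 14 and 0 after LCCL, lies wholly inside exons of Mbtps2 on the same strand, and Cdan1, which changed by -2.43 ± 0.47, shares 29.8% of its exon bases with Ttbk2 on the same strand. Nup43, Tapbpl, Mbtps2, Ttbk2 and Gm49356 are named here after the values were seen. Reads of such pairs cannot be told apart by position, so the falls of Exosc6, Yy2 and Cdan1 are uncertain. In all, 9 genes with more than 3 counts untreated had 0 after LCCL, and 10 had the reverse. Gm49356, the largest of the latter with 392 counts (at least 124-fold higher), shares all its exon bases with Ndufb9 and Rnf139. Among named genes, Gm20390 shares all its exon bases with Nme1 (42.2%) and Nme2 (57.8%) on the same strand. Itgam (68.7%), Fen1 (78.8%, opposite strand), Mt2 (73.5%, opposite strand) and Zfp36l1 (55.9%, opposite strand) also share exon bases with an overlapping transcript, and no source used here states whether the counting used strand.

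The 6 h group of the same dose shows how these genes stood early. Direct comparison of 1 µg for 24 h with 1 µg for 6 h called 7533 of 12401 genes (60.7%), 3756 higher and 3777 lower at 24 h. Trib3 stood at 5.93 ± 0.711 CPM at 6 h beside 5.85 ± 0.681 CPM untreated, and Abca1 at 5.53 ± 0.360 CPM beside 5.32 ± 0.778 CPM. Id1 stood at 33.7 ± 0.805 CPM at 6 h beside 33.1 ± 2.02 CPM untreated, and Mcm3 at 287 ± 10.5 CPM beside 299 ± 2.44 CPM. From 6 h to 24 h Trib3 rose by 4.31 ± 0.24, Abca1 by 3.23 ± 0.10, Id1 changed by -3.34 ± 0.13 and Mcm3 by -1.03 ± 0.06 (adjusted p = 3.48e-08, 3.46e-18, 8.81e-16 and 2.09e-13). By list, 25 of 27 ATF4 genes were higher at 24 h than at 6 h, and all 62 replication genes, 63 of 66 mitosis genes, 42 of 48 ribosome assembly genes and 44 of 58 interferon-stimulated genes were lower. This comparison and the one with untreated cells use the same 1 µg 24 h libraries.

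At 24 h, the comparison of 10 µg with 1 µg shows where the higher dose lay further from untreated and where it lay nearer. The comparison shares the 1 µg 24 h libraries with those above, and it called 4383 of 12401 genes (35.3%), 1988 higher and 2395 lower at 10 µg. Cell-cycle genes were lower again: 58 of 62 replication genes and 63 of 66 mitosis genes, with Mcm3 at 86.6 ± 6.56 CPM against 141 ± 13.6 CPM (-0.70 ± 0.06) and Ccnd1 at 364 ± 26.7 CPM against 607 ± 51.6 CPM (-0.74 ± 0.06). ATF4 genes had 13 higher and 1 lower, with Trib3 at 212 ± 30.0 CPM against 118 ± 31.0 CPM (0.84 ± 0.17, adjusted p = 0.00239). Lysosomal genes differed between the doses. At 1 µg 16 of 45 were higher and 7 lower than untreated, with a median of -0.01 that turned positive with library totals as the scale, and 10 µg against 1 µg had 41 higher and 0 lower, with a median of 0.469. Ctsd, cathepsin D, named after its value was seen, was at 2282 ± 20.3 CPM untreated, 2109.7 ± 153 CPM at 1 µg and 3619 ± 298 CPM at 10 µg, a difference between doses of 0.78 ± 0.06.

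For some genes the 1 µg level lay beyond both the untreated and the 10 µg level. Tgm2 stood at 14.4 ± 1.54 CPM untreated, 5.02 ± 0.652 CPM at 1 µg and 14.7 ± 3.89 CPM at 10 µg, and the doses differed by 1.55 ± 0.16 (adjusted p = 2.54e-07). Alox5 stood at 31.8 ± 0.586, 64.4 ± 8.84 and 28.0 ± 2.57 CPM, with a difference between doses of -1.20 ± 0.08 (adjusted p = 3.24e-11). Ighm stood at 1.13 ± 0.352, 11.3 ± 1.86 and 3.68 ± 0.203 CPM (-1.62 ± 0.18), and Glp2r at 189 ± 9.72, 549 ± 9.91 and 369.7 ± 8.69 CPM (-0.57 ± 0.05). Id2 was lower at 1 µg than at 10 µg, at 21.0 ± 0.848 and 43.3 ± 0.953 CPM against 143 ± 4.91 CPM untreated (1.04 ± 0.06), while Id1 and Id3 were lower at 10 µg than at 1 µg (-0.89 ± 0.19 and -0.98 ± 0.15). The ferritin gene Ftl1 and the integrin gene Itgam were likewise nearer to untreated at 10 µg than at 1 µg (0.24 ± 0.07 and -0.40 ± 0.05). Without replicate 1 of the 1 µg group these differences were 1.64 for Tgm2, -1.08 for Alox5, -1.75 for Ighm, -0.58 for Glp2r and 1.02 for Id2.

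**Figure D5:**
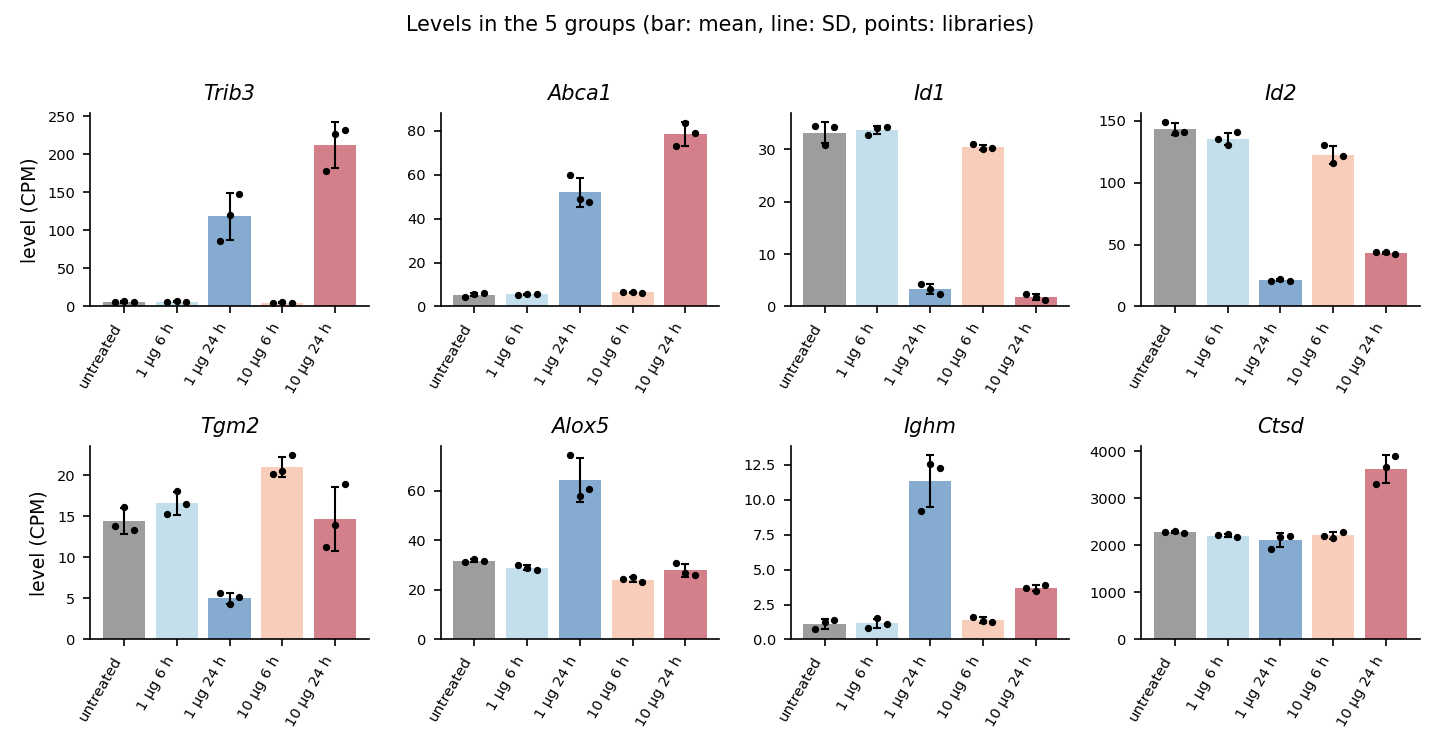
Level in CPM of 8 genes in the 5 groups, with bars for the mean of 3 libraries, lines for the SD and points for single libraries. Trib3 and Abca1 are raised and Id1 and Id2 lowered in both 24 h groups, Tgm2, Alox5 and Ighm have their extreme at 1 µg for 24 h, and Ctsd is raised at 10 µg for 24 h.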

How the data were processed

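The deposited table holds raw read counts per gene symbol, which the authors made from stranded mRNA libraries with build GRCm39 (per the submitters' processing notes). No source used here names the aligner, counter, annotation or strand setting. Groups were taken from the labels. Of 25639 symbols, 8141 had no count, and a filter on low counts (filterByExpr) left 12401 with 99.97% of all counts. Counts were scaled with TMM factors and fitted with edgeR 4.0.16 (R 4.3.3; robust quasi-likelihood, two-sided) over all 15 libraries in 5 groups, on 10 residual degrees of freedom, with Benjamini-Hochberg adjustment over all tested genes. The common biological variation was 5.68%. The script was tested on simulated data. Alternatives used DESeq2 1.42.0, limma 3.58.1, other scalings and filters, and each library left out.

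The members and gene lists were chosen with earlier results of these data known. Genes were named by rule: the 12 largest rises and falls with at least 5 CPM and no overlap between groups, the 8 smallest p-values in each direction, 16 core activation genes, up to 4 members a list by p-value, and the 8 genes with replicate 1 of the 1 µg 24 h group farthest above and below its replicates. Some genes that the rule names are not reported here. Exon overlaps came from GENCODE on GRCm38, another build than that of the counts, and were used only for which genes overlap.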

Additional observations from a re-analysis of the deposited data

Results flagged for a closer look

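Both direct comparisons of the 1 µg 24 h libraries with another treated group showed differences by edgeR's quasi-likelihood test. Against 1 µg for 6 h 7533 genes were called, and 10 µg for 24 h differed from 1 µg for 24 h in 4383.

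Among the genes with the largest changes at 1 µg, several lay further from untreated at 10 µg. The log2 difference of 10 µg from 1 µg at 24 h was 1.44 for Gdf15, 1.25 for Angptl6, 0.84 for Trib3 and 0.81 for Cth. It was 0.61 for Glrp1, 0.60 for Soat2, 0.60 for Abca1 and 0.26 for Slc1a4, all of which had risen at 1 µg. Of those that had fallen at 1 µg, it was -0.69 for Ifit3b, -0.89 for Id1, -0.98 for Id3 and -1.48 for Olfml3. The fitted value of -6.33 for Yy2 is no bound, since the gene had 0 counts in all 3 libraries of 10 µg for 24 h.

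Id2 and Ighm went the other way. Id2 had fallen at 1 µg and was higher at 10 µg than at 1 µg by 1.04, and Ighm had risen at 1 µg and was lower at 10 µg (-1.62).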

How the results depend on the processing

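The number of genes called against untreated, 7658, ran from 7016 to 7787 over 18 alternatives, and each count of higher and lower calls stayed within 1.5 times its main value. DESeq2 called 7415, limma-voom 7687, limma-voom with library weights 7537 and a fit of the 6 libraries alone 7135. Leaving out 1 library gave 7016 (without untreated replicate 1) to 7391 (without replicate 1 of the 1 µg 24 h group). Scaling moved the share of higher calls from 49.8% to 61.1% with upper-quartile factors (4749 higher, 3024 lower) and 63.2% with library totals. It also turned the sign of the small medians of the lists for cholesterol synthesis, cytosolic ribosomal proteins, lysosome, macrophage identity, matrix proteases and mitochondrial transcripts. The replicate block called 7601 genes, 3794 higher and 3807 lower. Deviations of same-numbered untreated and 1 µg 24 h libraries from their group means had correlations of -0.0137, 0.0757 and 0.0516. Such values cannot show whether same-numbered libraries share a day or culture, which the labels do not state. The comparison with 6 h called 6924 to 7345 genes when a library was left out and 7472 with the replicate block, and the comparison of doses 3581 to 4458 and 4291, with 3259 when its 6 libraries were fitted alone.

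Of 226 named genes, 207 kept their side of the threshold against untreated in every alternative that gave a value, of up to 18, and 205 also kept their sign; the 2 that did not were Acod1 and Gm20390, called in none, which ran from -0.20 to 0.59 and from -0.70 to 0.08. The call changed in at least 1 alternative for Cxcl2, H2-DMa, H2-Oa, Ier3, Ifi30, Itgb7, Mt2, Olfr933, Olfr934, Pla2g5, Ptgs2, Rdm1, Slc40a1, Slc5a3, Syt2, Tnf, mt-Atp8, mt-Nd2 and mt-Nd3. Leaving out 1 library, the change of Slc5a3 ran from -0.56 (without replicate 1 of the 1 µg 24 h group) to 0.46 (without its replicate 3) against untreated, and from -0.58 to 0.45 against 6 h. The dose difference ran from -0.62 (without its replicate 2) to 0.36 (without its replicate 1) for Syt2, and from -0.26 to 0.51 for Slc40a1 without the same libraries. The cause was not tested. Genes with few counts, such as Il1b, Il6 and Nos2, are limited by depth.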
